A study of Mus musculus with 2 samples.

Results

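The 10 genes described here mark the epithelial and the mesenchymal state of a cell: Cdh1, Epcam, Cdh2, Vim, Fn1, Snai1, Snai2, Zeb1, Zeb2 and Twist1. They were chosen by name, with earlier results of these data known, and found through the RefSeq accession of each probe. All 10 had a probe on the array and all 10 were measured on both arrays, out of 20819 genes with a probe and 16604 measured on both. They were read by 12 probes, of which 11 were well above background on both arrays, out of 29247 such probes in all.

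RNA came from mouse ES cells in which the Baf53a gene had been mutated by CRISPR/Cas9. These Baf53a cKO ES cells, which are 1 clone derived from E14 ES cells, also carry a Baf53a cDNA that resists the guide and that Tet (tetracycline) shuts off. The 2 groups were Baf53a-expressing and Baf53b-expressing Baf53a-deficient ES cells, transfected with a pCAGIP-Myc vector for Baf53a or for Baf53b. Both were then kept in 1 μg/mL Tet for 6 days, on gelatin with LIF. Baf53a is an actin-related subunit of the BAF chromatin remodelling complex in proliferating cells, and Baf53b is the form found in neurons. There was 1 array per group, so no difference between the groups has a replicate check and no test was run.

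Epithelial cells hold to each other through E-cadherin (Cdh1), through desmosomes and through tight junctions. In an epithelial to mesenchymal transition, transcription factors of the Snail, Zeb and Twist families repress Cdh1 and other junction genes, and N-cadherin (Cdh2), vimentin (Vim) and fibronectin (Fn1) become abundant. Mouse ES cells grow as compact colonies joined by E-cadherin, and such a transition accompanies their exit towards mesoderm and endoderm.

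The factors of the Snail and Zeb families bind the E-box CACCTG, which reads CAGGTG on the opposite strand. The promoters of both members that held it are shown with the motif in capitals. Each sequence runs from 250 bases before to 50 bases after a RefSeq start on GRCm38.p6, on the plus strand, at chr17:87635729-87636028 for Epcam and chr2:167537945-167538244 for Snai1.
Epcam: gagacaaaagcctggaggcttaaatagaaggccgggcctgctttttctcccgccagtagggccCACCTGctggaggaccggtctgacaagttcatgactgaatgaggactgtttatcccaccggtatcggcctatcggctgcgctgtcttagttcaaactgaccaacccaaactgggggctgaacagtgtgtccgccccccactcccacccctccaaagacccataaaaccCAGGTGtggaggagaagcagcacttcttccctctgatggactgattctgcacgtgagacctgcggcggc
Snai1: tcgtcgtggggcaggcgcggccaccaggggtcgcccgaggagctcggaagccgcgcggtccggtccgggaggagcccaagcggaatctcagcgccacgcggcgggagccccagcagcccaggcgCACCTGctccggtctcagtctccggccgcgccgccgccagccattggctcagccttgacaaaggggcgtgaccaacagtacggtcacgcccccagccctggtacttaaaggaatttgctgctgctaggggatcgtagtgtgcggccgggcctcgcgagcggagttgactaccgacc
In Epcam the motif began at positions -187 and -19 from the start, and in Snai1 at -126. The table of promoters held 8 promoters of 5 members, and the motif was not in the window of the other 6, which belong to Vim, Twist1 and Zeb2. Cdh1 had no promoter in the table, so its promoter was not searched. Of all 32851 promoters in the table, 20.2% held the motif at least once on either strand and 2.88% held it more than once. With so few promoters, 2 of 8 is near the share of all promoters. A match describes the letters in this window and is not a measured binding site.

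A signal below is the brightness of a probe after background subtraction. A level is the log2 of that signal with the 75th percentile of the array, a signal of 1161 for Baf53a- and 1128 for Baf53b-expressing cells, set to 0. A difference is the level in Baf53b- minus that in Baf53a-expressing cells. Probes differ in how brightly they read a transcript, so levels are compared between arrays and not between genes. The scatter of single spots was taken from 324 probes printed as 10 spots each, within 5 equal groups of probes by brightness. The SD of a difference between single spots combined the scatter of both arrays as if it were independent. It fell from 0.274 in the dimmest group through 0.119, 0.0799 and 0.0664 to 0.0590 in the brightest. Spots at the same position were not paired for it. For Cdh1 the paired differences had a smaller SD, of 0.030, than the 0.0664 of its brightness group. The SD of single spots covers the scatter within an array only, not that between cultures, extractions or arrays. For each measured member probe, the scanner software gave an error of about 10% of the signal. The multiples of the SD given below leave this error out.

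The genes for both Baf53 forms were read as a check of the labels. Actl6b, which encodes Baf53b, was well above background in Baf53b-expressing cells only, at least 14.5-fold higher. Actl6a, which encodes Baf53a, stood at 1.71 and 1.67, a difference of -0.04, so its level did not tell the groups apart and does not bear out the label of Baf53a-expressing cells. Where this probe lies relative to the mutated site and to the coding region in the vector was not examined here. Between 75.2% and 76.4% of the probes on an array were well above background and no spot was saturated. For the label of ES cells, 10 markers were read, among them Pou5f1, Nanog and Esrrb. All 10 were measured on both arrays, with a median difference of -0.05 and a range of -0.15 to 0.07. These markers were thus present and alike on both arrays. Detection alone does not single out ES cells, since all 6 neural markers were measured too.

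The members differed little between the groups. None of the 10 was 2-fold apart, where 0.193% of all measured genes were. None was at least 1.25-fold higher in Baf53b-expressing cells, against 5.58% of all genes, and none at least 1.25-fold lower, against 2.01%. With so few members, a count of 0 is near these shares. Both counts depended on the setting. Zeb2 was at least 1.25-fold lower under quantile normalization, where 3.48% of all genes were higher and 3.52% lower by that much, and under 3 other scalings. Cdh2 was past 1.25-fold higher, at 0.33, with its brightest probe alone. The differences ran from -0.31 for Zeb2 to 0.21 for Cdh2, with a median of 0.07, beside -0.0032 over all genes. In 8 members the level was higher in Baf53b-expressing cells by some amount, and in Zeb1 and Zeb2 it was lower. The sign of Fn1 and Twist1 turned with the scaling, and that of the other 8 did not in the alternatives run. Of all genes, 49.1% were higher.

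**Figure D1:**
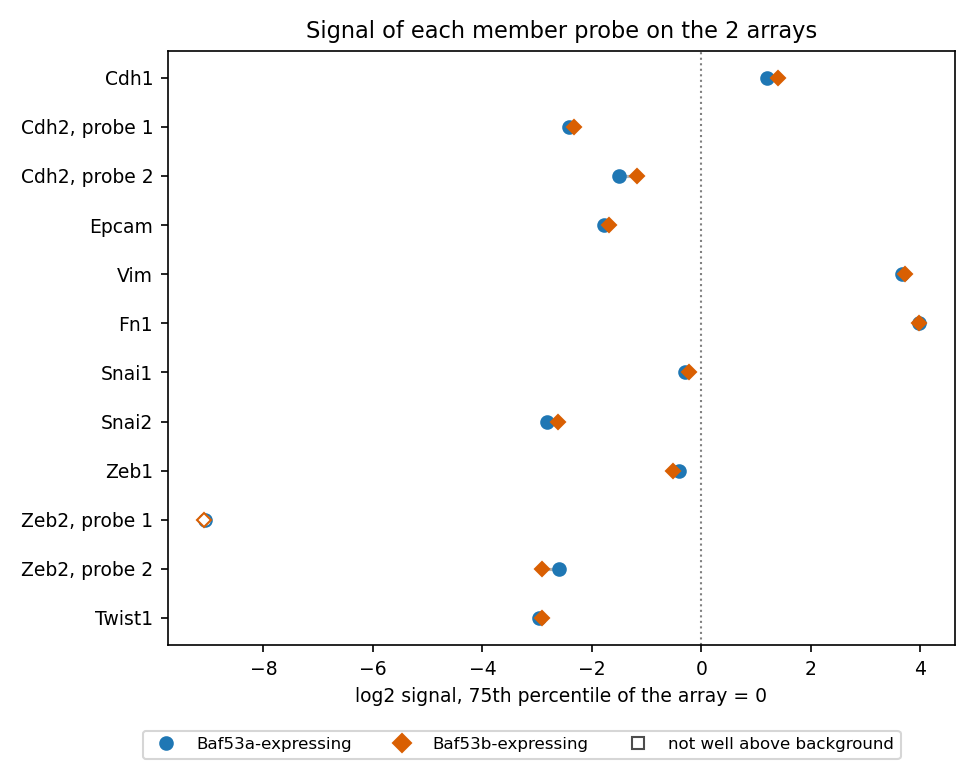
Level (log2 signal, 75th percentile of the array set to 0) of each of the 12 member probes in Baf53a-expressing (circles) and Baf53b-expressing cells (diamonds), 1 array each. Open symbols mark the Zeb2 probe that was not well above background, near -9 on both arrays, and the other pairs lie at most 0.33 apart.

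Cdh1, which encodes E-cadherin, the main adhesion molecule of epithelia and of ES cell colonies, was the member with the best measurement, since its probe was printed as 10 spots. The signal over these spots had a lowest value of 2476, a median of 2717 and a highest of 2773 in Baf53a-expressing cells. In Baf53b-expressing cells the lowest was 2624, the median 3008 and the highest 3116. The ranges of the signals therefore overlapped, while each spot was higher on the array of Baf53b-expressing cells than the spot at the same position on the other array. After scaling, the spots ran from 1.09 to 1.26 in Baf53a-expressing cells and from 1.22 to 1.47 in Baf53b-expressing cells, and 9 of the 10 latter spots lay above the highest of the former. The 10 differences ranged from 0.13 to 0.22, with a mean of 0.19 ± 0.030 (SD over spots), which is 1.14-fold. The spots are repeated readings of 1 RNA sample, so their number says how well the 2 arrays were read and not how much cultures vary. Among the 5849 probes of like brightness, 10.9% differed between the arrays by at least as much.

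**Figure D2:**
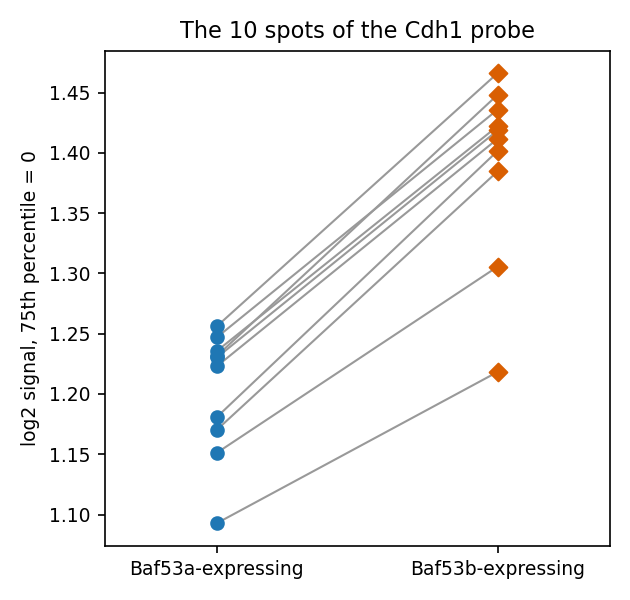
Level (log2 signal, 75th percentile of the array set to 0) of the 10 spots of the Cdh1 probe on each array, with a line joining the spots at the same position. All 10 lines rise towards Baf53b-expressing cells, by 0.13 to 0.22, and the axis does not start at 0.

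Epcam encodes a surface adhesion molecule of epithelia that is also found on ES cells. Its signal was 338 in Baf53a- and 352 in Baf53b-expressing cells, a difference in level of 0.10 from -1.78 to -1.68. This is 1.27 times the SD of single spots at that brightness, and 46.1% of the probes of like brightness were at least as far apart. Cdh2 encodes N-cadherin, the cadherin of mesenchymal and neural cells, and was read by 2 probes. The first had signals of 218 and 225 and a difference of 0.09. The second had signals of 411 and 501 and a difference of 0.33, or 1.25-fold. The probes thus gave the same direction and sizes 0.24 apart, and the gene's mean difference of 0.21 rests mostly on the second. At 4.07 times the SD of single spots, the second Cdh2 probe lay farthest apart of the 11 measured member probes on that scale, and 3.97% of probes of like brightness differed as much. Both cadherins and Epcam therefore stood on the same side, higher in Baf53b-expressing cells.

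Vim, the intermediate filament protein of mesenchymal cells, and Fn1, the matrix protein fibronectin, had the brightest probes of the set. Vim had signals of 14694 and 14838, and Fn1 of 18212 and 17737. After scaling, Vim differed by 0.06 and Fn1 by 0.0037. Both differences were within the SD of single spots of 0.0590, and 65.9% and 97.7% of the brightest probes were at least as far apart. In that brightest group the median difference was -0.06, against 0.10 in the dimmest. Relative to the median of their brightness group, Vim differed by 0.12 and Fn1 by 0.07.

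The transcription factors did not share a direction. Snai1, which encodes Snail, a repressor of Cdh1, had signals of 944 and 967 and a difference of 0.08. Snai2, which encodes the related factor Slug, had signals of 165 and 184 and a difference of 0.20, which is 1.15-fold and 2.54 times the SD of single spots. Of the probes of like brightness, 15.8% differed at least as much as Snai2. Twist1, a bHLH factor of mesoderm and neural crest, had a signal of 149 on both arrays and a difference of 0.04, within the SD of 0.119. Both Snail factors thus read higher in Baf53b-expressing cells, and Twist1 differed by less than the spot scatter.

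Zeb1 and Zeb2 encode zinc finger and homeodomain repressors of epithelial genes, and were the 2 members that read lower in Baf53b-expressing cells. The signal of Zeb1 was 870 in Baf53a- and 788 in Baf53b-expressing cells, a difference of -0.10. The measured probe of Zeb2 had signals of 193 and 151, a difference of -0.31, so that the level was 1.24-fold higher in Baf53a-expressing cells. Among the probes of like brightness, 12.3% differed at least as much as Zeb2 and 37.6% as much as Zeb1. The other Zeb2 probe had signals of 2.17 and 2.07 with a software error of about 100% of the signal, was not well above background on either array and gave no difference. The direction for Zeb2 therefore rests on 1 spot per array.

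**Figure D3:**
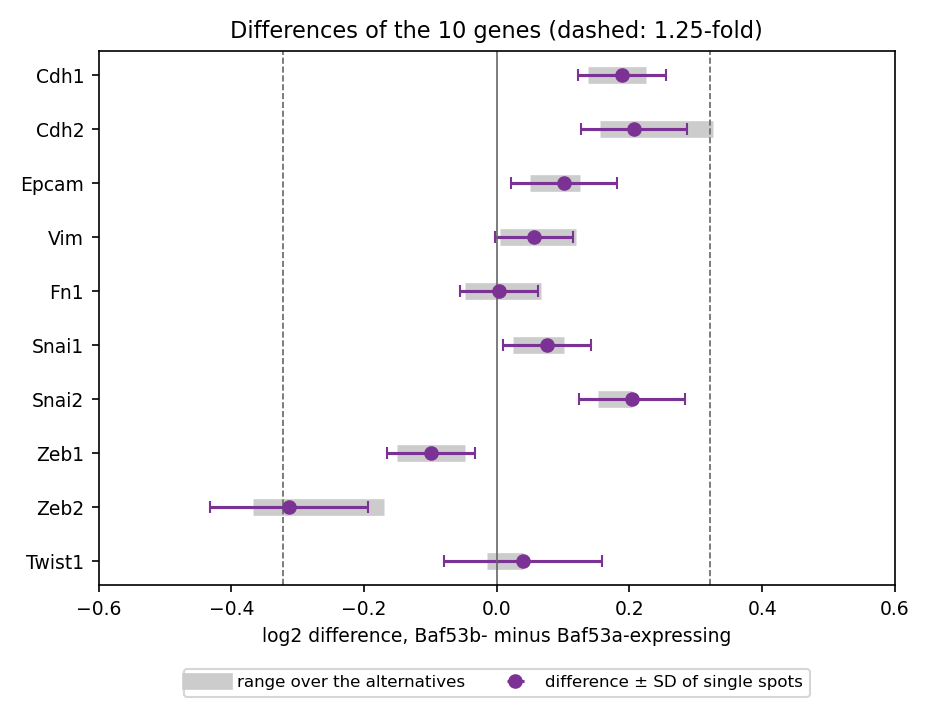
Log2 difference (Baf53b- minus Baf53a-expressing cells) of the 10 genes, with bars for the SD of a difference between single spots of that brightness and grey bands for the range over the alternative ways of processing. Dashed lines mark 1.25-fold. Cdh1, Cdh2, Snai2 and Zeb2 lie more than 2 of these SDs from 0. However, the bars cover scatter within an array only and leave out the error given by the scanner software. Over all probes of their brightness groups, the SD of the differences was wider, at 0.124 to 0.208. Bars are for single spots, while Cdh1 is a mean over 10 spots and Cdh2 over 2 probes.

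**Figure D4:**
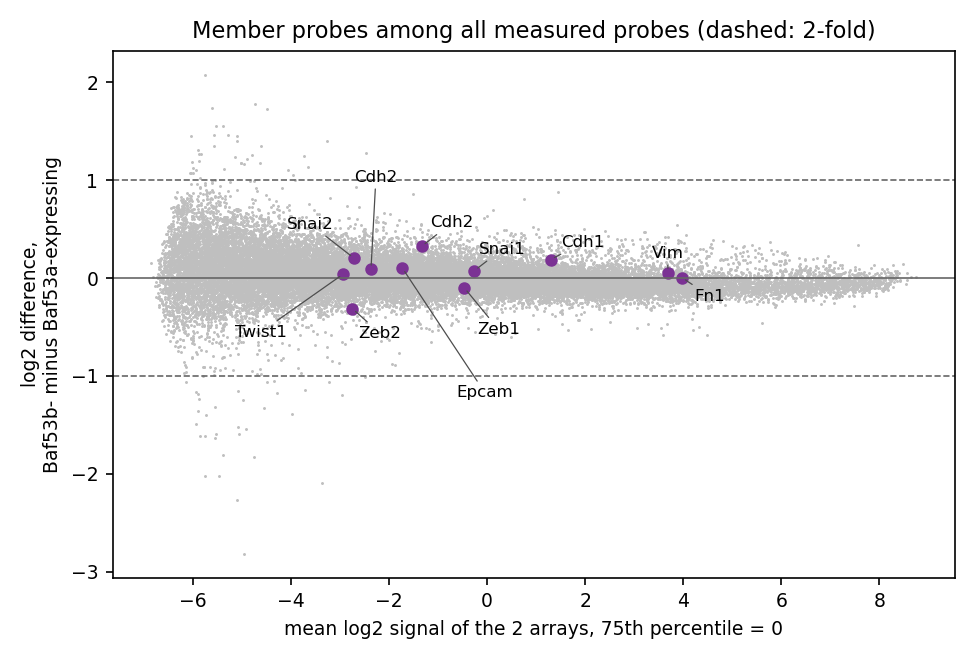
Log2 difference against mean level for all 29247 probes well above background on both arrays (grey), with the 11 member probes in purple. The scatter widens towards dim probes, and every member probe lies inside the dashed lines at 2-fold.

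Other genes of the same processes were taken from 3 lists that contain the members: epithelial junction and keratin genes, mesenchymal cytoskeleton and matrix genes, and regulators of the transition. In each list none was 2-fold apart. The epithelial list had the highest median. All 42 of its genes were measured, with a median difference of 0.11 and 30, or 71.4%, higher in Baf53b-expressing cells. In the mesenchymal list 75.9% were higher, and of all genes 49.1%. The medians of the epithelial and mesenchymal lists lay close under some scalings. They were 0.082 and 0.081 under quantile normalization, and 0.083 and 0.076 relative to the brightness group. Of the 42 epithelial genes, 8, or 19.0%, were at least 1.25-fold higher and 1, or 2.38%, was at least 1.25-fold lower. Of all genes, 927, or 5.58%, were higher and 334, or 2.01%, lower by that much. The split over all genes depended on the scaling, with 578 higher and 585 lower under quantile normalization (3.48% and 3.52%). Under cyclic loess it was 646 and 531 (3.89% and 3.20%), and centred on the median 674 and 532 (4.06% and 3.20%). Relative to the median of each brightness group, 627 were higher and 539 lower (3.78% and 3.25%). Under these 4 scalings the epithelial list had 7, 8, 5 and 7 genes higher, or 16.7%, 19.0%, 11.9% and 16.7%, and 1 lower. Without Cdh1 and Epcam its median was still 0.11.

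Within the epithelial list, subgroup medians were 0.30 for desmosome genes, 0.32 for keratins and 0.16 for claudins. Other tight junction genes had 0.08, and epithelial transcription and splicing factors 0.07. That of the classical cadherins and catenins was -0.04 and turned with the scaling. These subgroups were drawn up after the values had been seen. Some genes of the list at least 1.25-fold higher lay in none of them. Of 6 desmosome genes, 5 read higher, with a median difference of 0.30. The desmosomal cadherin Dsc2 differed by 0.69, with a dim probe and a spot SD of 0.274, and by 0.33 under normexp background correction. Jup, which encodes plakoglobin, differed by 0.55. With dimmer probes left out, 4 desmosome genes had a median of 0.09. The keratins and claudins read higher in each alternative run on them. The keratin genes Krt8, Krt18 and Krt19, whose products form the filaments of simple epithelia, were higher by 0.44, 0.32 and 0.29. The 4 claudins, which seal tight junctions, were all higher, by 0.10 for Cldn7 up to 0.43 for Cldn4.

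The other classical cadherins and catenins differed by small amounts, apart from Jup, which also binds E-cadherin and was counted with the desmosome genes. Of the 5 classical cadherins and catenins in the list, 1, Cdh1, read higher by more than the spot SD, and the count of those higher by any amount was 1 to 3 depending on the scaling. Ctnnb1, which encodes β-catenin, differed by -0.11, Ctnna1, which encodes α-catenin, by -0.05 and Cdh3, which encodes P-cadherin, by -0.04. Over the alternatives Ctnnb1 stayed below 0, at -0.16 to -0.04, and Ctnna1 lay between -0.10 and 0.02. The lowest values of the list were those of the tight junction gene Tjp3, at -0.37, the trafficking gene Rab25, at -0.23, and the desmosome gene Pkp3, at -0.13.

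Of the 37 mesenchymal genes, 29 were measured on both arrays, with a median difference of 0.07 and 22 higher. Of these, 2 were at least 1.25-fold higher, or 6.90%, near the 5.58% of all genes. The count was 0 of 29 under normexp, where 1.24% of all genes passed. It was 0 of 24 with dim probes filtered more strictly, where 1.60% of all genes passed. With a weaker detection flag it was 6 of 33, where 9.54% of all genes passed. The 2 that were at least 1.25-fold higher were Acta2, which encodes smooth muscle actin, at 0.40, and Fbn1, which encodes fibrillin, at 0.33. Timp3, an inhibitor of matrix proteases, and the collagen gene Col1a2 each differed by 0.22. The lowest values were -0.28 for the receptor gene Axl, -0.25 for Tgfbi, -0.15 for Thy1 and -0.12 for Tagln. The collagen genes Col3a1 and Col5a2 were well above background in Baf53b-expressing cells only, with lower bounds of 1.33-fold and 1.57-fold higher. Both probes lay near the detection limit, at levels of -6.64 and -6.45 there. The bounds, 0.42 and 0.65 on the log2 scale, leave out the spot scatter, with an SD of 0.274 in the dimmest group. On that array 76.4% of all probes were well above background, against 75.2% on the other. Itga4, Tnc, Postn, Lox, Fap and Prrx1 were not well above background on either array.

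The 37 regulators were all measured and showed the lowest median of the 3 lists, 0.01, with 20 higher and 17 lower. The highest were Foxc1 at 0.87, Klf17 at 0.28, Snai3 at 0.26 and Tgfb2 at 0.22. The lowest were Foxc2 at -0.45, Zeb2 at -0.31, and Tgfb1 and Smad4 at -0.11 each. Foxc1 had a dim probe with a spot SD of 0.274, and differed by 0.15 under normexp background correction. Klf17 was in the same dimmest group, so its 0.28 lay near that SD. Over the alternatives Klf17 ranged from 0.15 to 0.28 and Foxc2 from -0.53 to -0.16. Tgfb1 lay within its spot SD of 0.119. The 9 TGF-beta ligands, receptors and Smads, which carry a main signal for the transition, had a median of -0.0015, which turned with the scaling. The 6 corepressors that act with Snail and Zeb factors lay between -0.06 and 0.02. Their direction turned with the scaling. The median was -0.09 with 0 of 6 higher when centred on the median. Relative to the brightness group it was 0.01 with 5 of 6 higher.

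**Figure D5:**
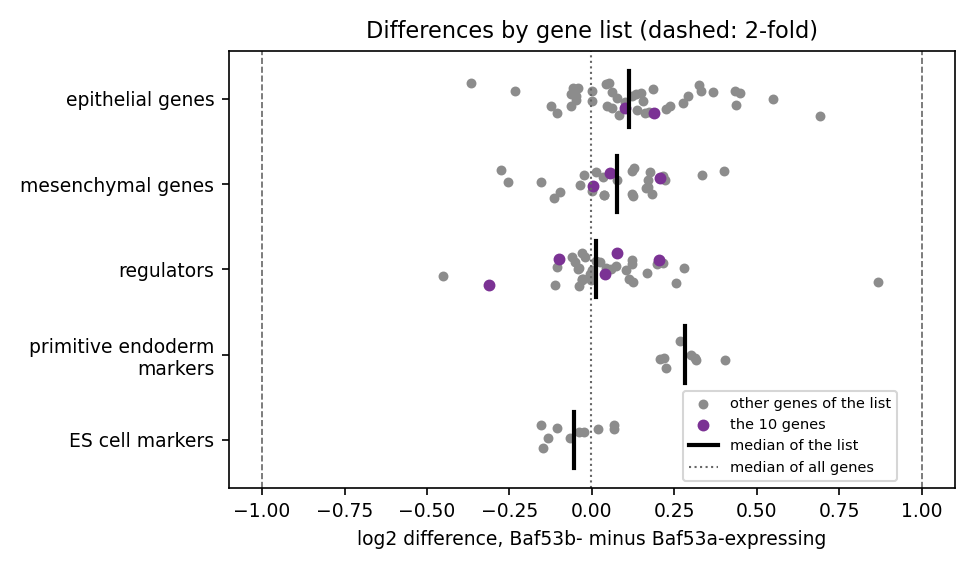
Log2 difference (Baf53b- minus Baf53a-expressing cells) of each measured gene in the epithelial, mesenchymal and regulator lists and among the primitive endoderm and ES cell markers, with a thick line for the median of a list, a dotted line for that of all genes, and the members in purple. The medians are 0.11, 0.07, 0.01, 0.28 and -0.05, and no gene reaches the dashed lines at 2-fold.

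Markers of other cells that the cultures could hold were read beside these lists. All 8 markers of primitive endoderm, an epithelial cell type that ES cells can form, were higher in Baf53b-expressing cells, by 0.21 for Gata6 to 0.40 for Dab2. Of these 8, 1, or 12.5%, was at least 1.25-fold higher, where 5.58% of all genes were. The count was 0 under normexp, where 1.24% of all genes were. It was 2 under quantile normalization, cyclic loess and relative to the brightness group, where 3.48% to 3.89% of all genes were. The summed signal of the 8 markers, in multiples of the 75th percentile of the array, was 23.7 in Baf53a- and 28.9 in Baf53b-expressing cells. Most of both sums came from the bright probe of Lama1, which differed by 0.30. In bulk RNA, fewer cells of a type and less RNA per cell cannot be told apart. Of 9 fibroblast markers, 7 of which are also in the mesenchymal list, 6 were measured, with a median difference of 0.17 and 5 of the 6 higher. Their summed signals were 1.41 and 1.39, of which the bright probe of Thy1, the lower one at -0.15, was the largest part. Col3a1 was seen in Baf53b-expressing cells only, near the detection limit. Postn and Fap were not well above background on either array. Of 7 early mesoderm markers 6 were measured, with sums of 1.27 and 1.33, and Mixl1 was not well above background on either array. All 6 neural markers were measured, with a median of -0.02, 3 of them higher and 3 lower. Their sums were 8.99 and 8.18, most of it from Tubb3, which differed by -0.15, while the 10 ES cell markers summed to 335 and 323. The part of primitive endoderm RNA in the differences of the epithelial genes, and of fibroblast RNA in those of the mesenchymal genes, was not tested.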

How the data were processed

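Mouse gene expression arrays of 1 colour (Cy3) were hybridised with RNA of Baf53a-deficient ES cells that expressed Baf53a or Baf53b, 1 array per group. The authors extracted the scans with Agilent Feature Extraction 11.0.1.1 and deposited spot intensities, background-subtracted and spatially detrended but not normalized between arrays, with flags per spot. A table of 30488 values, also deposited, holds for each probe and array a ratio of its signal to 1 number per array. All 30479 values matched to spots on each array fitted this within 0.1%, with 1160 and 1126 as those numbers.

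Control and outlier spots were left out, log2 intensities of a probe's spots were averaged, and each array's 75th percentile was set to 0. The flag for well above background had to be set on 50% or more of a probe's spots. A gene's difference was the mean over its probes well above background on both arrays. Where 1 array alone had a probe above background, a lower bound was computed, against the higher of its own value on the other array and the lowest signal well above background there. Gene symbols came from the probes' RefSeq accessions, looked up in a GRCm38.p6 table that served for names only.

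With 1 array per group there was no test. The members and gene lists were chosen with earlier results of these data known. Named are all members, the 4 genes of each list farthest apart in each direction, list genes with a lower bound, the label check and the markers, while further genes of a subgroup were named after their values were seen. The value of 1 gene under this rule is not reported here. Alternatives were normexp on the median signal (offset 50), quantile normalization, cyclic loess, centring on the median, dim probes kept or filtered more strictly, a weaker detection flag, outlier spots kept, the brightest probe per gene and the authors' value table. Differences relative to the brightness group were added after seeing the data. Python 3.11.15, numpy 2.4.6, pandas 2.3.3, matplotlib 3.10.9, R 4.3.3 and limma 3.58.1 were used. The scaling steps alone were tested on simulated data, with large changes placed in brighter probes and called at 2-fold.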

Additional observations from a re-analysis of the deposited data

How the results depend on the processing

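In 11 alternatives the count of members 2-fold apart stayed at 0, and the median difference of the members ranged from 0.015 to 0.089. The medians of the epithelial and mesenchymal lists stayed positive, at 0.061 to 0.14 and 0.024 to 0.12. That of the regulators ranged from -0.04 to 0.04 and was negative only when centred on the median, where the median of all genes was -0.05. Of 110 member values, 4 moved by more than the SD of single spots: Cdh2 to 0.33 with its brightest probe, Zeb2 to -0.17 without a filter, which adds its undetected probe, and Vim to 0.12 and Fn1 to 0.07 relative to their brightness group, chosen after seeing the data. Another 5 had the other sign: Fn1 when centred on the median, and Twist1 under normexp, cyclic loess, centring on the median and relative to the brightness group. Zeb2 was at least 1.25-fold lower under quantile normalization, cyclic loess, centring on the median and relative to the brightness group, as low as -0.37, and Cdh2 was past 1.25-fold higher with its brightest probe. Of the epithelial genes, 4 of 31 were at least 1.25-fold higher under the stricter filter, where 1.60% of all genes were, and 10 of 42 without a filter, where 9.75% were. No paired analysis was possible because each group had 1 array, and no replicate could be left out. The lowest signals well above background were 8.45 and 9.75, which limits what dim probes can show.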
